A study of Mus musculus with 2 samples.

Results

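Cells gated on genes of oral keratinocytes, the epithelial cells of the mouth lining, were taken from newborn mouse molar germs: 203 cells, out of 28918 kept in the whole series. Markers bore the name out for 39 K14cre;Edarfl/fl and 39 Edarfl/fl basal-like cells and for 24 and 13 suprabasal-like cells. They went against it for 17 and 39 cells led by Odam, an enamel organ gene, and left 20 and 12 cells unnamed, so the set is called the gated cells here. A kept cell had at least 500 detected genes and at most 20% of its unique molecular identifiers (UMIs, each standing for 1 captured RNA molecule) from mitochondrial genes. Cells were then taken in which Epcam, Cdh1, Krt5, Krt14 and Perp, genes of epithelium, summed to at least 3 UMIs. Fibrillar collagen (Col1a1, Col1a2 and Col3a1) could make up at most 100 of 10000 UMIs, and enamel matrix transcripts (Amelx, Ambn and Enam) had to stay under that number. Last, cells were chosen by their measured UMIs of Krt4, Krt13, Krt6a, Calm4 and Sprr3, at least 3 together. This step kept 100 of 1550 gated epithelial cells of the K14cre;Edarfl/fl library and 103 of 1986 of the Edarfl/fl library. The other 3333 gated epithelial cells, 1450 and 1883 of them, held fewer UMIs of those 5 genes and serve as the comparison within epithelium. The number of cells is not compared between the libraries, because the genes that chose the cells may themselves differ.

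The study asked what epithelial Edar does in the tooth, in the setting of hypohidrotic ectodermal dysplasia. Mandibular first molar germs came from newborn mice, given in the labels as C57black/B6. In K14cre;Edarfl/fl mice a Cre recombinase driven by the keratin 14 promoter, which is active in stratified and dental epithelium, acts on an Edar gene flanked by loxP sites, and Edarfl/fl mice carry the same floxed gene without Cre. Each group is 1 BD Rhapsody library, and how many germs or pups were pooled is not given in the sources used here. There is therefore no replicate check on any difference below and no p-value is given. Every interval is at 95% and covers counting error only.

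Stratified oral epithelium renews from a basal layer, where Krt5, Krt14 and Krt15 are made and integrins anchor the cells to the basement membrane. Cells that leave this layer switch to Krt4 and Krt13, the keratin pair of moist, non-cornified mucosa. On harder surfaces such as gingiva and palate they also build a cornified envelope, a cross-linked protein shell beneath the plasma membrane made of loricrin, repetin and small proline-rich (SPRR) proteins. Lipids, among them cholesterol made through the mevalonate pathway, seal the outermost layers. Ectodysplasin signals through Edar and NF-kB in the placodes of teeth, hair and glands.

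The K14cre;Edarfl/fl library held 16029 barcodes and 62158879 UMIs and the Edarfl/fl library 13990 barcodes and 73375441 UMIs, with 4 barcode sequences in common. The chosen cells had medians of 3237.5 and 4427 UMIs and totals of 359543 and 534636 UMIs, so levels are given as CPM, the usual scaling of a gene's UMIs to the total UMIs of all chosen cells in that library. Their median mitochondrial share was 10.4% in K14cre;Edarfl/fl and 8.25% in Edarfl/fl. Sex differed too: Xist without any Y-linked UMI was found in 43 and 14 cells, and Y-linked UMIs without Xist in 13 and 40. Free RNA hardly reached the threshold of the gate. Among endothelial cells, 0 of 1030 in K14cre;Edarfl/fl and 0 of 1245 in Edarfl/fl held 3 UMIs of the 5 genes, which allows shares of up to 0.291% and 0.241%. Among macrophages 1 of 558 and 1 of 593 did.

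Edar itself was at the limit of detection in these cells. Edar (minus strand of mm10 chromosome 10, 58600789 to 58675654) gave 1 UMI in K14cre;Edarfl/fl and 2 UMIs in Edarfl/fl, or 2.78 and 3.74 CPM, and no difference is detectable at this depth. In the other epithelial cells it stood at 21.1 CPM in K14cre;Edarfl/fl and 38.2 CPM in Edarfl/fl. The adaptor gene Edaradd gave 6 and 4 UMIs in the gated cells. The sources used here do not say which exons are floxed, and the assay tags the 3′ end of transcripts, so the remaining UMIs may lie outside the deleted part and check nothing.

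The 5 gate genes chose the cells, so their counts are a description. Krt6a, a keratin of palate, tongue and wounded skin, was the most widespread, with a UMI in 97 of 100 K14cre;Edarfl/fl cells and 101 of 103 Edarfl/fl cells. Krt13 was seen in 61 and 56 cells and Krt4 in 32 and 25. Neither member of the mucosal pair was seen in 37 and 46 cells, and 30 and 44 cells held Krt6a as their single gate gene. Calm4, a calmodulin-like gene of differentiating keratinocytes, was found in 31 and 52 cells, and Sprr3, an envelope protein gene of mouth and oesophagus, in 7 and 6. Krt6a shares much of its sequence with Krt6b, so the split of reads between them is uncertain. At the edge of the gate, 9 and 11 cells held exactly 3 UMIs, while 14 and 14 epithelial cells with 2 UMIs stayed out. Krt15 stood at 1241 CPM (K14cre;Edarfl/fl) and 153 CPM (Edarfl/fl) in the cells just inside, and at 412 and 1764 CPM in those just outside. It was seen in 5 and 1 cells inside and in 6 and 4 outside. Odam stood at 211 and 2615 CPM just inside, and at 361 and 252 CPM just outside. It was seen in 3 and 8 cells inside and in 3 and 4 outside, so these levels rest on very few cells.

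To read each gate gene in cells it had not chosen, cells were taken by 3 UMIs of the other 4 genes. Calm4 (chromosome 13, 3837757 to 3838673) then stood at 428 CPM in K14cre;Edarfl/fl (interval 362 to 503, 28 of 97 cells) and 1281 CPM in Edarfl/fl (interval 1187 to 1381, 52 of 103 cells). The log2 ratio, K14cre;Edarfl/fl over Edarfl/fl, was -1.57 on the scale of CPM + 5. All log2 ratios here use this scale, also within sub-clusters, except under alternatives that changed the CPM added. Leading genes of sub-clusters were ranked on CPM + 20. Over alternative choices of the cells the ratio of Calm4 stayed between -2.09 and -0.77. Thinned to 2000 UMIs per cell, which left out 27 and 18 shallower cells, 17 of 73 and 32 of 85 cells held a Calm4 UMI (23.3% and 37.6%), and unthinned shares were 31.0% and 50.5%. In endothelial cells, at median depths of 3143 and 3225 UMIs, the share was 0.0971% and 0.0803%.

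Krt4 (chromosome 15, 101918535 to 101924735) stood at 2898 CPM in K14cre;Edarfl/fl and 5219 CPM in Edarfl/fl by the same reading, a log2 ratio of -0.85. Over alternative choices of the cells it ranged from -1.56 to 1.17, the highest without the suprabasal-like sub-cluster described further on. It was found in 29 and 25 of the cells so chosen, and its richest cell held 292 of 1011 UMIs in K14cre;Edarfl/fl and 687 of 2790 in Edarfl/fl. Krt13 was at 3467 and 3971 CPM (-0.20), and its ratio turned to 0.12 when 5 UMIs of the other genes were asked for. Krt6a was at 5943 and 5173 CPM (0.20). Sprr3 had 16 UMIs in 7 cells of K14cre;Edarfl/fl and 311 UMIs in 6 cells of Edarfl/fl, 200 of them in 1 cell, which gave 44.5 and 582 CPM.

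**Figure D1:**
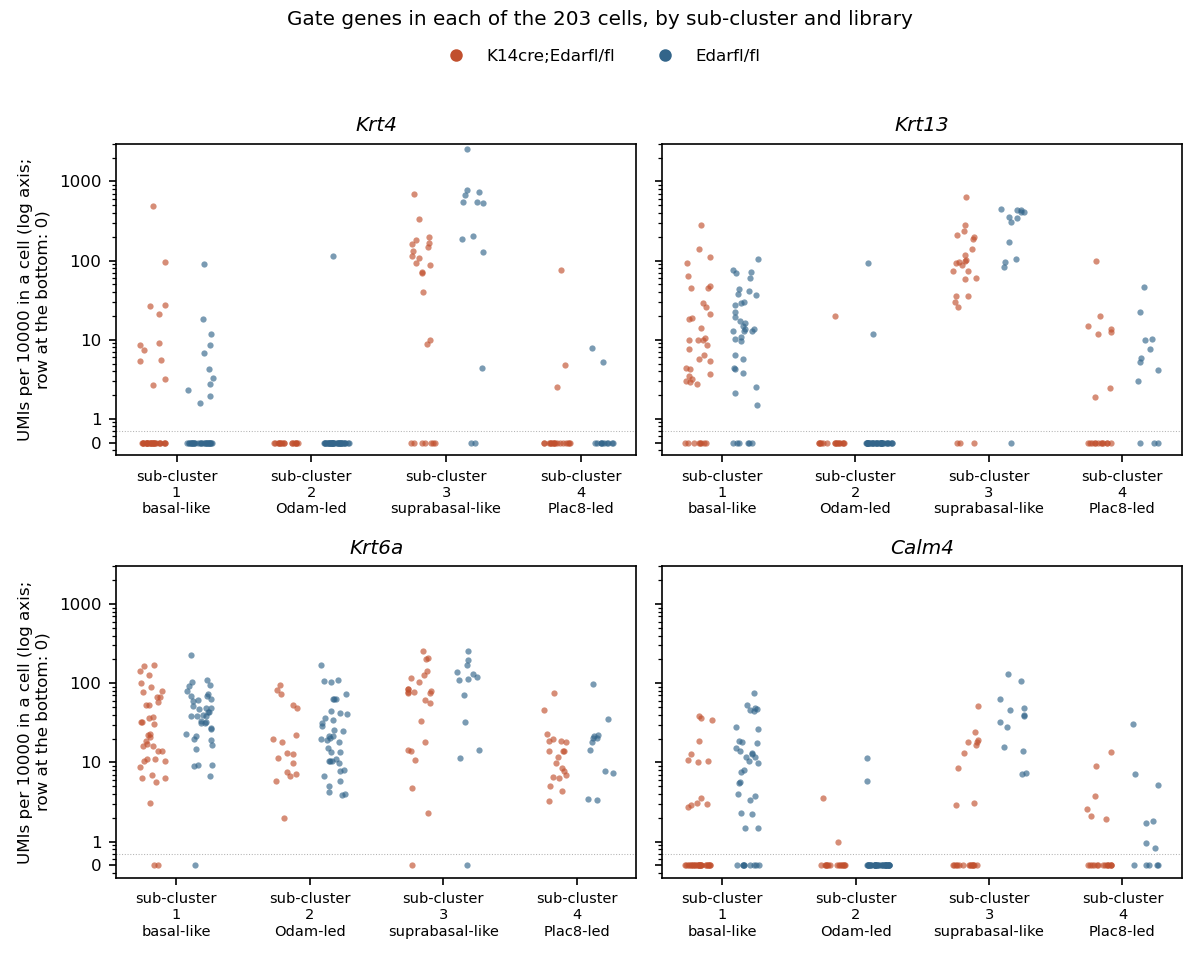
UMIs of Krt4, Krt13, Krt6a and Calm4 per 10000 UMIs of a cell (log axis, cells without a UMI on the lowest row), with 1 point per cell for the 203 cells, by sub-cluster, K14cre;Edarfl/fl left and Edarfl/fl right in each pair. Krt4 was found in 0 and 1 cells of the Odam-led sub-cluster and in 17 and 11 cells of the suprabasal-like one.

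Against the other epithelial cells the gated cells carried several keratinocyte genes at high level in both libraries. At least 4-fold higher levels in both libraries were seen for 106 of 2770 genes at the minimum level (3.83%). This contrast follows from the choice of cells and was not tested. The 25 genes furthest above the other epithelial cells began with Ly6d, which codes for a surface protein of keratinocytes. It had 1246 CPM in K14cre;Edarfl/fl gated cells and 1448 CPM in Edarfl/fl gated cells, against 8.66 and 6.94 CPM in the other epithelial cells. Krtdap, a secreted keratinocyte differentiation protein gene, had 1346 and 2007 CPM, against 10.7 and 6.83 CPM. The basal keratin gene Krt15 had 2792 and 2862 CPM, against 49.5 and 47.6 CPM.

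Further genes of that set have known roles in upper layers or in junctions. Calml3, another calmodulin-like gene, had 553 CPM in K14cre;Edarfl/fl gated cells and 662 CPM in Edarfl/fl gated cells, against 1.56 and 1.01 CPM in the other epithelial cells. The protease inhibitor gene Spink5 had 362 and 382 CPM, against 9.35 and 13.8 CPM, and the desmosomal cadherin gene Dsg1a 239 and 253 CPM, against 13.2 and 12.5 CPM. Lgals7, a galectin gene of stratified epithelium, had 1488 and 1549 CPM, against 146 and 106 CPM. The glycerol and water channel gene Aqp3 had 406 and 230 CPM, against 7.62 and 5.15 CPM. The most abundant of the 25 was the imprinted non-coding gene H19, at 7927 and 5065 CPM, against 445 and 359 CPM. A few owed their place to very few cells: Idi2 was found in 5 and 8 cells, and Mt4, a metallothionein of stratified squamous epithelium, in 7 and 5 cells with 38 of 53 and 56 of 68 UMIs in 1 cell.

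Some genes of the enamel organ were scarce in the gated cells, and others were not. Col22a1, a collagen gene, gave no UMI in the gated cells of either library and stood at 159 and 187 CPM in the other epithelial cells. Shh, the Hedgehog ligand gene of dental epithelium, had 36.2 and 16.8 CPM, against 370 and 518 CPM. Sp6, a transcription factor gene needed for ameloblasts, had 50.1 and 87.9 CPM, against 768 and 850 CPM. Odam went the other way, with 284 and 1049 CPM in the gated cells, against 98.2 and 122 CPM in the other epithelial cells, and the list of enamel matrix and protease genes summed to 392 and 1309 CPM, against 154 and 199 CPM. Salivary gland markers gave no UMI in the gated cells of either library.

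**Figure D2:**
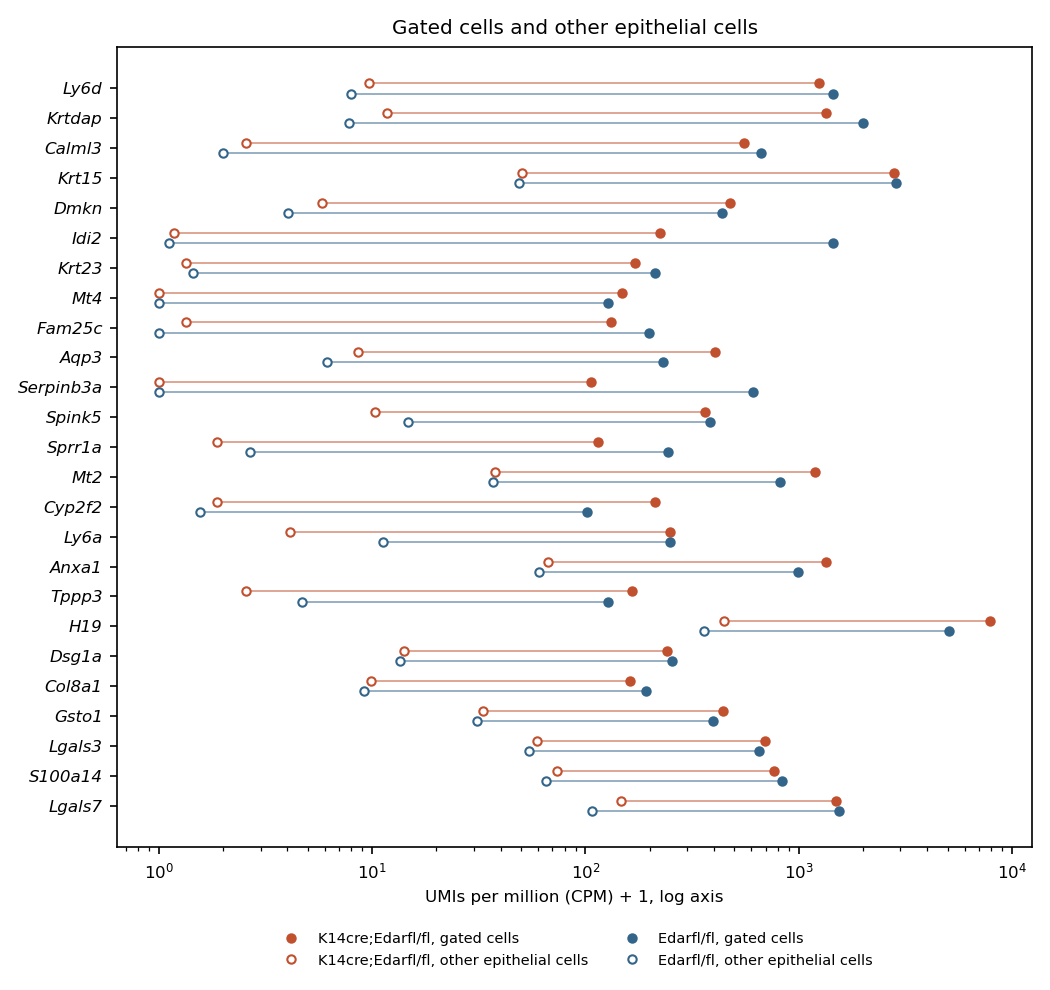
Level (CPM + 1, log axis) of the 25 genes furthest above the other epithelial cells, with filled points for the gated cells and open points for the other epithelial cells, K14cre;Edarfl/fl above Edarfl/fl in each pair. The filled points of a gene lie close together in most rows, and Idi2 (222 and 1455 CPM) and Serpinb3a (106 and 610 CPM) are set apart.

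Clustering the 203 cells without the gate, mitochondrial, ribosomal, haemoglobin and sex-linked genes gave 4 sub-clusters. Sub-cluster 1 was basal-like, with 39 K14cre;Edarfl/fl and 39 Edarfl/fl cells: 13 of 15 basal markers were found in at least 25% of its cells, and Krt15 (5361 and 5930 CPM) and Col17a1, a hemidesmosome collagen gene (773 and 625 CPM), were among its leading genes. Sub-cluster 3 was suprabasal-like, with 24 and 13 cells. It was led by Idi2, Serpinb3a and envelope genes such as Rptn, Sprr1b, Sprr1a and Lor, and held most Krt4 (12141 and 38616 CPM) and much Krt13 (12357 and 23859 CPM).

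Sub-cluster 2, with 17 K14cre;Edarfl/fl and 39 Edarfl/fl cells, went against the label and is called Odam-led. It was led by Mindy4, Odam, Acta2, Slc4a4 and Nts. Krt4 was seen in 0 and 1 of its cells, Krt13 in 1 and 2 and Krt15 in 1 and 1. Most of its cells passed the gate on Krt6a alone, which stood at 1735 CPM in K14cre;Edarfl/fl and 3087 CPM in Edarfl/fl. A few cells of sub-cluster 2 held fewer than 3 Krt6a UMIs and passed with Krt13 or Calm4 added. Dental epithelium markers found in at least 25% of its cells included Sostdc1, Msx2, Dlx3 and Ptch1. Sub-cluster 4, with 20 and 12 cells, was led by Plac8, Ctla2a, Lum and Ptn. It held 13 of 15 basal markers but also 6 of 10 mesenchyme markers and is left unnamed. One K14cre;Edarfl/fl barcode in it had 10335 UMIs, 85 of them from endothelial, macrophage or lymphoid genes, and was not called a doublet by Scrublet.

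Between the libraries, 102 of 3637 genes were higher in K14cre;Edarfl/fl gated cells (2.8%) and 112 were lower (3.08%). To be counted, a gene needed 50 CPM or more in either library, a 2-fold or larger difference in CPM + 5, and an interval of its count ratio that did not include 1. In the other epithelial cells, which held many more UMIs, the same rule found 4 higher (0.113%) and 1 lower (0.0282%) of 3541 genes. These counts depended on the settings: they were 30 and 41 with a minimum of 100 CPM, 266 and 237 with none, 216 and 154 in cells with at least 1000 genes and at most 10% mitochondrial UMIs, and 238 and 98 in cells with Y-linked UMIs only. Counts in the gated cells were carried by few cells for many genes. A single cell held at least 50% of the UMIs of 15 of the higher and 12 of the lower genes, in the library where they were higher, and 3 cells did so for 30 and 28. Over the 11250 genes measured outside the gate the median log2 ratio was -0.01.

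**Figure D3:**
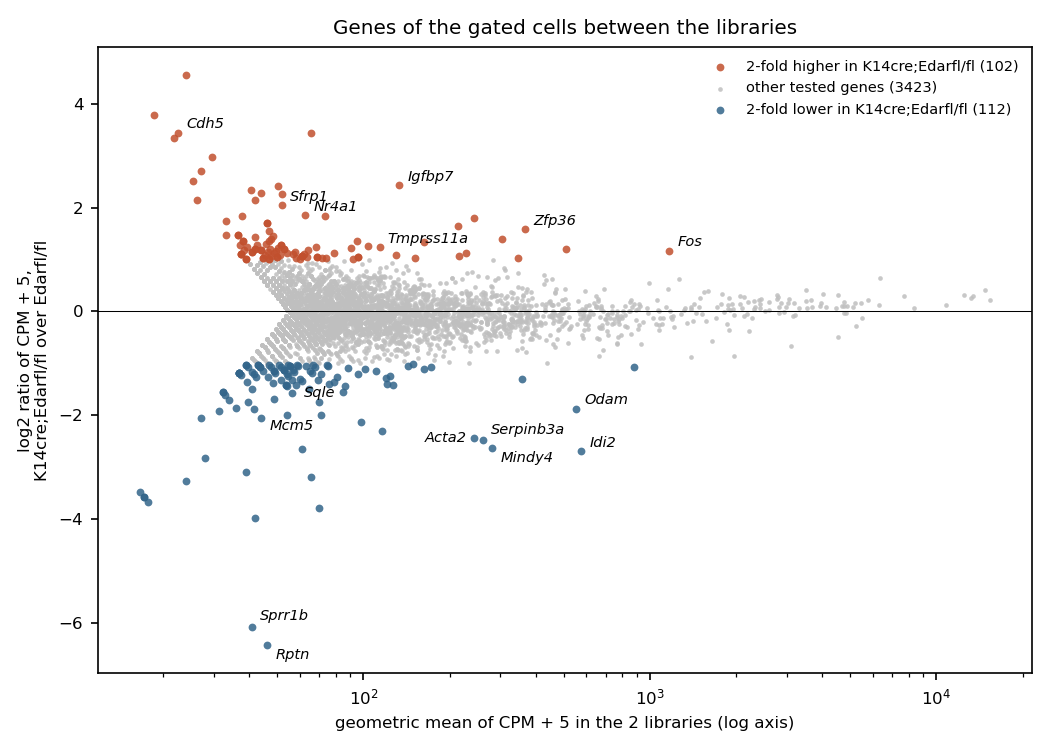
Log2 ratio of CPM + 5, K14cre;Edarfl/fl over Edarfl/fl, against the geometric mean of CPM + 5 (log axis), with 1 point per tested gene outside the gate, 102 higher in orange and 112 lower in blue. Rptn and Sprr1b, at the bottom, had no UMI in K14cre;Edarfl/fl, so their place depends on the 5 CPM added.

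Cornified envelope genes gave some of the lowest ratios in K14cre;Edarfl/fl gated cells, and most of their UMIs lay in a handful of Edarfl/fl cells. Of 39 genes in the list 16 were measured (at least 5 CPM in either library). Of these, 10 had log2 ratios below 0, with a median of -0.84. Of the 16, 11 reached the 50 CPM that a call needs (the minimum level), and 7 passed as lower and 0 as higher. Over all genes at that level 3.08% passed as lower. Rptn, which codes for the envelope protein repetin, gave 0 UMIs in K14cre;Edarfl/fl and 225 UMIs in 3 Edarfl/fl cells, so it was at least 50.4-fold lower against a floor of 3 counts per library. Sprr1b gave 0 UMIs in K14cre;Edarfl/fl and 176 UMIs in 5 Edarfl/fl cells, 132 of them in 1 cell, at least 39.5-fold lower. Lor, the loricrin gene, gave 2 UMIs in 1 cell and 86 UMIs in 2 cells, with an interval of the ratio from 0.0041 to 0.129. These genes were present in Edarfl/fl as a few very rich cells and nearly missing from all 100 cells of K14cre;Edarfl/fl. Some of the rich cells were the same ones. An Edarfl/fl cell of 8897 UMIs held 120 Rptn, 40 Sprr1b and 200 Sprr3 UMIs. Another, of 9646 UMIs, held 53, 132 and 107. The low ratios of such genes are therefore not separate observations.

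Cnfn, which codes for cornifelin, gave 15 UMIs in 8 K14cre;Edarfl/fl cells and 107 UMIs in 4 Edarfl/fl cells. Cdsn, whose product joins cornified cells, gave 0 UMIs and 29 UMIs in 3 cells, and Cysrt1 gave 3 UMIs in 3 cells and 58 UMIs in 4 (ratio interval 0.0154 to 0.236). Cnfn and Sprr1a were found in more K14cre;Edarfl/fl than Edarfl/fl cells, at fewer UMIs each. Sprr1a gave 41 UMIs in 19 K14cre;Edarfl/fl cells and 130 UMIs in 9 Edarfl/fl cells, 62 of them in 1 cell. Its log2 ratio was -1.06 in the sum and 0.58 when each cell counted equally, and Cnfn then had -0.65 and no longer passed. SPRR genes are alike in sequence, so the split of reads among them is uncertain. Ppl, for periplakin, an early envelope protein, stood at 150 and 234 CPM, and Cstb, for cystatin B, at 712 and 580 CPM. Neither passed the rule.

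The list's direction rested on the suprabasal-like cells and on single rich cells. Without sub-cluster 3, which holds 24 and 13 cells, the median was 0.17 and 0 genes passed. With each gene's richest cell left out in each library it was -0.43 with 4 lower genes, and with equal weight for each cell it was -0.07. In cells with Xist only it was 0.85 and in cells with Y-linked UMIs only 1.44, both with very few UMIs for most of its genes. The part that the opposite sex make-up of the libraries takes in this difference was not tested. Within sub-cluster 3 basal genes were higher in K14cre;Edarfl/fl: Krt14 stood at 1897 CPM in K14cre;Edarfl/fl and 358 CPM in Edarfl/fl, and Col17a1 at 230 and 14.3 CPM. Median mitochondrial shares there were 10.5% and 3.21%, and whether they bear on the difference was not tested.

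Serpinb12, Serpinb3a and Alox12b also had most of their UMIs in a few Edarfl/fl cells. For Serpinb3a these included the cells of 8897 and 9646 UMIs that were rich in Rptn and Sprr1b, with 137 and 91 UMIs. Serpinb12 (chromosome 1, 106934449 to 106957080) had 5 UMIs in K14cre;Edarfl/fl and 136 UMIs in 9 Edarfl/fl cells, and Serpinb3a, which has close copies beside it, 38 UMIs in 10 cells and 326 UMIs in 9 cells. Alox12b, a lipoxygenase gene needed for the skin barrier, had 1 UMI and 37 UMIs, 35 of the 37 in 3 cells (ratio interval 0.0010 to 0.238). Outside sub-cluster 3, Serpinb12 gave 1 UMI in K14cre;Edarfl/fl and 0 in Edarfl/fl, and Serpinb3a 4 and 0, too few to compare. Alox12b was the 1 called gene of the epithelial lipid barrier, where 8 of 27 measured genes reached the minimum level. Of 31 measured serpins, kallikreins and proteases 12 reached it, with 2 lower and 3 higher. Over all genes at that level 3.08% passed as lower and 2.8% as higher. Tmprss11a, a membrane serine protease gene of the upper digestive tract, was higher, with 61 UMIs in 27 K14cre;Edarfl/fl cells and 37 UMIs in 22 Edarfl/fl cells (170 and 69.2 CPM). Tmprss11b had 20 UMIs in 13 cells and 7 UMIs in 7 cells. Cst6, for cystatin M/E, had 53 and 29 UMIs, 31 of the 53 in 1 cell, and turned to -1.49 in the better-covered cells.

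The promoters of the 7 lower envelope genes are shown because AP-1, whose Fos and Jun subunits are described further on, is a known regulator of such genes. All 7 matched the RefSeq promoter table of build GRCm38.p6, with 8 windows, of which the 250 bases before the start site were searched on both strands for the AP-1 letters TGANTCA. A match is found in 6.75% of all 32851 windows and in 5 of these 8. A match says only that the letters are there. The windows with a match of Rptn (chr3:93393449-93393698, plus strand), Sprr1b (chr3:92438780-92439029, minus strand), Sprr1a (chr3:92485882-92486131, minus strand) and Lor (chr3:92083143-92083392, minus strand) follow, each 5′ to 3′ with the matches in capitals.
Rptn: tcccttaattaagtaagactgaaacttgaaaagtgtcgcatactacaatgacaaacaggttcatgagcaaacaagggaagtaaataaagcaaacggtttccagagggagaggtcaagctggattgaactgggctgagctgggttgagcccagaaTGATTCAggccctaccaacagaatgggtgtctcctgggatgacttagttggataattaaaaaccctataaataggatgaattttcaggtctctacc
Sprr1b: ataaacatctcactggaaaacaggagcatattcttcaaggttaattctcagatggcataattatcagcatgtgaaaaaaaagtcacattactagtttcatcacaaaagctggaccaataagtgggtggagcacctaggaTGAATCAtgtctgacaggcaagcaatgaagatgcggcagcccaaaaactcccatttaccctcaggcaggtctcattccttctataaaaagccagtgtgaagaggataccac
Sprr1a: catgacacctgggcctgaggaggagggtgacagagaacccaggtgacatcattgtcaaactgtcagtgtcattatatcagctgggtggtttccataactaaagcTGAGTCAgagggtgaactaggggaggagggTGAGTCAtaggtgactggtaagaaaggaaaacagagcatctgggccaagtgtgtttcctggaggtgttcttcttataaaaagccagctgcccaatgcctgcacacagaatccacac
Lor: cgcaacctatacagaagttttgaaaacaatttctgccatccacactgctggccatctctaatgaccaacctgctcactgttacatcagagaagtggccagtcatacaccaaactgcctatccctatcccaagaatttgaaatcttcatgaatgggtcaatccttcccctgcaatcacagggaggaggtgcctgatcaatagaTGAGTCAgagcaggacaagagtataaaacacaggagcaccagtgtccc
The matches begin 96 bases before the start site in Rptn, 111 in Sprr1b, 146 and 116 in Sprr1a and 48 in Lor. Cysrt1 has 1, 161 bases before its start, and the windows of Cnfn and Cdsn have none.

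Cholesterol and isoprenoid synthesis genes lay mostly lower in K14cre;Edarfl/fl gated cells. Of 25 measured genes 22 had log2 ratios below 0, and the median was -0.49. Of the 25, 14 reached the minimum level for a call, and 6 passed as lower and 0 as higher. Over all genes at that level 3.08% passed as lower. The same list in the other epithelial cells had 19 of 24 below 0, a median of -0.14 and no gene past the rule. Sqle, for squalene epoxidase, had 11 UMIs in 9 K14cre;Edarfl/fl cells and 48 UMIs in 27 Edarfl/fl cells (30.6 and 89.8 CPM, log2 ratio -1.41). Fdft1, for squalene synthase, had 10 UMIs in 8 cells and 49 UMIs in 22 cells (-1.56). Msmo1, for a sterol oxidase, had 7 UMIs in 5 cells and 34 UMIs in 23 cells (-1.49). No cell held more than 6 UMIs of any of these 3 genes.

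The enzymes before squalene went the same way. Idi1, for isopentenyl diphosphate isomerase, had 21 UMIs in 16 K14cre;Edarfl/fl cells and 75 UMIs in 31 Edarfl/fl cells (58.4 and 140 CPM), and Fdps, for farnesyl diphosphate synthase, 14 UMIs in 11 cells and 49 UMIs in 27 cells. The related gene Idi2 (chromosome 13, 8952863 to 8960945) behaved otherwise: 75 of its 80 UMIs in K14cre;Edarfl/fl and 394 of its 778 UMIs in Edarfl/fl lay in 1 cell. That Edarfl/fl cell was the one of 8897 UMIs rich in Rptn, and the cell of 9646 UMIs held another 326. Hmgcs1, for an early enzyme of the pathway, stood at 125 and 189 CPM and did not pass.

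Calls came mostly with the suprabasal-like cells. Within sub-cluster 3, 8 of 21 genes at the minimum level were lower. The counts were 1 of 10 in the basal-like, 0 of 11 in the Odam-led and 0 of 8 in the Plac8-led cells. The share over all genes within a sub-cluster is not given here, so these counts are not read as particular to the list. Without sub-cluster 3, Sqle and Fdft1 passed and Idi1, Idi2, Fdps and Msmo1 did not. The list's median was below 0 in all 4 sub-clusters, at -0.38 in the basal-like, -0.73 in the Odam-led, -0.99 in the suprabasal-like and -0.97 in the Plac8-led cells. It was also below 0 under each of the 19 alternatives tried, between -0.70 and -0.12, the value nearest 0 coming from thinned cells. Of the 6 lower genes, Msmo1, Idi1 and Idi2 have a promoter window in the table. None holds the sterol response letters TCACNCCAC, found in 1.05% of all windows, and the letters CCAAT are in 2 of the 3, against 33.8% of all windows.

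Genes of DNA replication also lay mostly lower. Of 23 measured S phase genes 22 had log2 ratios below 0, with a median of -0.61. Only 7 reached the minimum level, and 4 were lower and 0 higher, against 3.08% lower over all genes at that level. The list in the other epithelial cells had a median of 0.09. Mcm5, a subunit of the replicative helicase, had 6 UMIs in 5 K14cre;Edarfl/fl cells and 45 UMIs in 22 Edarfl/fl cells (16.7 and 84.2 CPM, log2 ratio -2.04). Mcm6 had 14 UMIs in 12 cells and 51 UMIs in 27 cells (-1.19). Rrm1, a subunit of ribonucleotide reductase, had 12 UMIs in 8 cells and 48 UMIs in 21 cells, and Ung, a uracil-DNA glycosylase gene, 8 UMIs in 8 cells and 30 UMIs in 15 cells. Pcna, the polymerase clamp gene, stood at 100.1 and 181 CPM and did not pass the 2-fold rule. The median stayed below 0 under all 19 alternatives, between -1.48 and -0.36.

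Shares of cells did not separate the libraries in the same way. After thinning, 24 of 73 K14cre;Edarfl/fl cells (32.9%, interval 22.3 to 44.9%) and 31 of 85 Edarfl/fl cells (36.5%, 26.3 to 47.6%) held at least 2 UMIs of the S phase list, and unthinned shares were 47.0% and 57.3%. For genes of G2 and M phase the median was -0.34, and 16 of 24 lay below 0. The sub-clusters went opposite ways, with medians of -1.03 in the basal-like and -0.99 in the Plac8-led cells, but 1.45 in the Odam-led and 1.89 in the suprabasal-like cells. At the minimum level, 5 of 8 genes were higher in the Odam-led and 1 of 1 in the suprabasal-like cells. In the basal-like cells 2 of 10 were lower, and in the Plac8-led cells 3 of 19. Shares over all genes within a sub-cluster are not given here, so these counts describe only the list. The pooled median turned to 0.07 in thinned cells and with equal weight for each cell. Cenpf, a kinetochore protein gene, was the 1 of 8 members at the minimum level that passed, with 5 UMIs in 4 cells and 34 UMIs in 12 cells. Cells with at least 2 UMIs of that list were 28.8% and 21.2% after thinning and 28.0% and 35.0% before, so their order changed with depth.

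Immediate early genes, which are switched on quickly and without new protein synthesis, lay mostly higher in K14cre;Edarfl/fl gated cells. Of 27 measured genes 26 had log2 ratios above 0, with a median of 0.64. At the minimum level stood 21, with 7 higher and 0 lower, against 2.8% higher over all genes at that level. The other epithelial cells had 24 of 27 above 0 and a median of 0.45, with no gene past the rule. Zfp36, whose product speeds the decay of messenger RNAs, had 226 UMIs in 50 K14cre;Edarfl/fl cells and 110 UMIs in 40 Edarfl/fl cells (629 and 206 CPM, log2 ratio 1.59). Nr4a1, an orphan nuclear receptor gene, had 41 UMIs in 23 cells and 15 UMIs in 9 cells (114 and 28.1 CPM, 1.85). The AP-1 subunit gene Fos stood at 1747 and 772 CPM, Fosb at 487 and 238 CPM and Junb at 184 and 84.2 CPM. Egr1, a zinc finger factor gene, stood at 765 and 331 CPM.

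The median of the list was 0.55 in the basal-like and 0.73 in the suprabasal-like cells, 1.14 in the Plac8-led cells and -0.39 in the Odam-led cells. Zfp36 stood at 720 CPM in K14cre;Edarfl/fl and 134 CPM in Edarfl/fl in the basal-like cells. In cells with Y-linked UMIs only, 13 and 40 of them, the list had a median of -0.18, and Zfp36 turned to -0.56. Of the called genes of the list, Nr4a1 alone still passed in those cells. In cells with Xist only, 43 and 14 of them, the median was 0.69. There Egr1 still passed, and Zfp36, Nr4a1, Fos, Fosb, Junb and the further called gene Csrnp1 did not. The mitochondrial share was also higher in the K14cre;Edarfl/fl cells, and the parts that it and sex take in this difference were not tested.

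**Figure D4:**
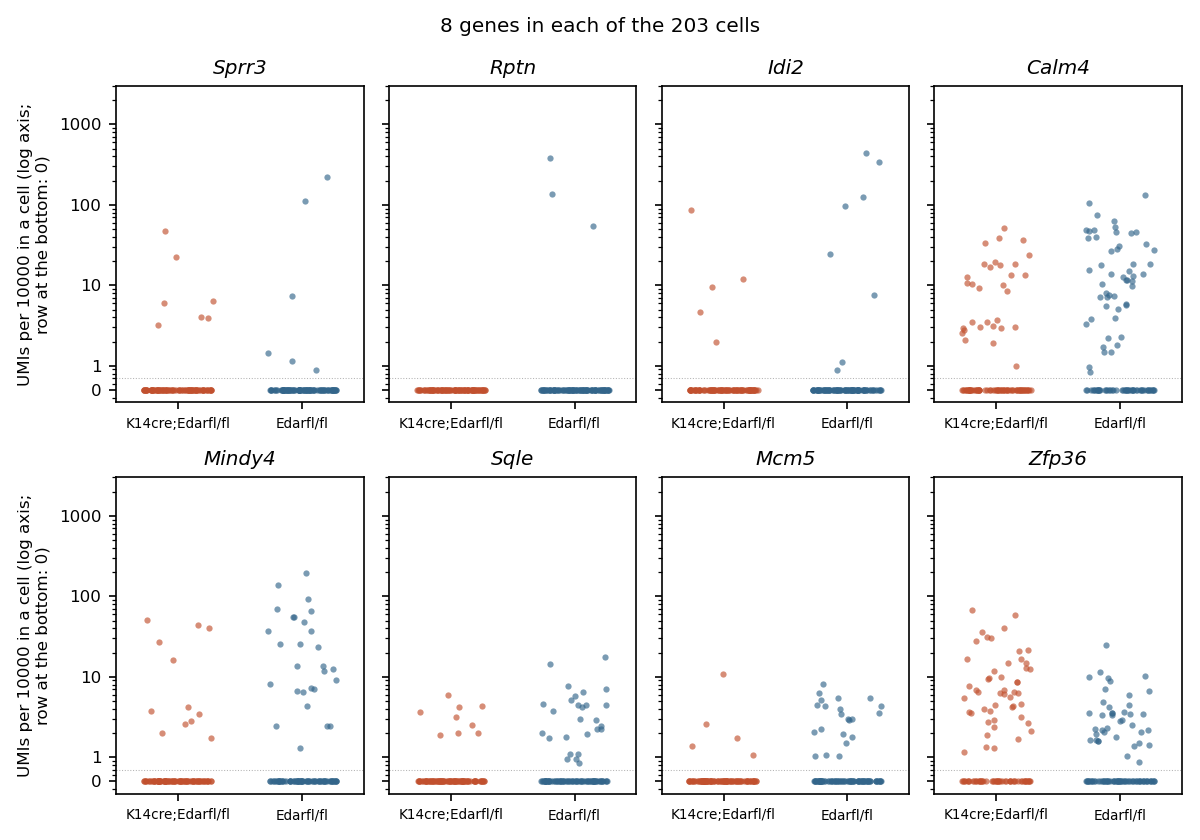
UMIs per 10000 UMIs of a cell (log axis, cells without a UMI on the lowest row) of 8 genes, with 1 point per cell, 100 K14cre;Edarfl/fl cells left and 103 Edarfl/fl cells right. Rptn and Idi2 lie in a few very rich Edarfl/fl cells, while Sqle (9 and 27 cells), Mcm5 (5 and 22 cells) and Zfp36 (50 and 40 cells) are spread over many cells at low counts.

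Genes that led the Odam-led sub-cluster were lower over all chosen cells, and most of their UMIs lay in its 17 K14cre;Edarfl/fl and 39 Edarfl/fl cells. Mindy4, of a deubiquitinase family, had 39 UMIs in 12 K14cre;Edarfl/fl cells and 371 UMIs in 28 Edarfl/fl cells, Odam 102 UMIs in 14 cells and 561 UMIs in 29 cells, and the smooth muscle actin gene Acta2 36 UMIs in 10 cells and 300 UMIs in 35 cells. Outside that sub-cluster Odam gave 13 UMIs in K14cre;Edarfl/fl and 12 UMIs in Edarfl/fl (log2 ratio 0.31), and Mindy4 4 and 0, too few to compare. Within it, levels differed as well as the number of cells. The enamel matrix and protease list, which includes Odam, summed there to 1676 CPM in K14cre;Edarfl/fl and 3454 CPM in Edarfl/fl. All 5 of its measured genes had log2 ratios below 0.

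Markers of other tissues moved as well. All 7 endothelial markers had log2 ratios above 0, with summed levels of 306 and 16.8 CPM. Cdh5 and Pecam1 passed as higher, Cdh5 with 25 UMIs in K14cre;Edarfl/fl and 1 UMI in Edarfl/fl (ratio interval 6.09 to 1526) and Pecam1 with 28 and 3 UMIs (4.29 to 71.3). In K14cre;Edarfl/fl 18 of the 25 and 20 of the 28 came from 1 cell. Without the cells that held at least 3 endothelial, macrophage or lymphoid UMIs, which left 97 and 101 cells, the list's median was 0.34 and Pecam1 gave 1 UMI and 3 UMIs. Vim, a mesenchyme marker, had 134 and 62 UMIs, 74 of the 134 in 1 cell, and the 10 mesenchyme markers summed to 2231 and 1345 CPM. Igfbp7 (110 and 28 UMIs), Mest (76 and 8) and Ctla2a (40 and 0) were likewise concentrated, with 70, 49 and 38 UMIs in 1 K14cre;Edarfl/fl cell. Mest still passed without its highest cell, and also without the cells with endothelial, macrophage or lymphoid UMIs. Igfbp7 still passed without its highest cell but not without those cells, and Ctla2a passed in neither case. The part of other cell types in these differences was not tested.

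A few more differences are given with the number of cells behind them. Sfrp1, which codes for a secreted Wnt antagonist (chromosome 8, 23411502 to 23449632), had 36 UMIs in 17 K14cre;Edarfl/fl cells and 11 UMIs in 9 Edarfl/fl cells (100.1 and 20.6 CPM, log2 ratio 2.04). It was the 1 named gene of 82 that passed the rule in all 19 alternatives. Nfkbiz, an atypical NF-kB inhibitor gene, had 28 UMIs in 16 cells and 11 UMIs in 9 cells. Prkg1, a cGMP-dependent kinase gene, had 23 UMIs in 12 cells and 1 UMI in 1 cell (ratio interval 5.55 to 1409), with 14 of the 23 in 3 cells, and no longer passed without its highest cell. Among lower genes, Llph had 12 UMIs in 11 cells and 66 UMIs in 41 cells. Gss, for glutathione synthetase, had 4 UMIs in 4 cells and 30 UMIs in 24 cells.

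Several lists had no gene past the rule, which over all genes 2.8% pass as higher and 3.08% as lower, so that few or no calls are what lists of their size would hold at that share. The 15 basal layer genes had a median of -0.04, the 20 measured suprabasal genes of -0.08 (14 of them at the minimum level) and the 10 measured desmosome genes of 0.01 (9 at that level). Within sub-cluster 3 the basal median was 1.85, with 3 of 10 genes at the minimum level higher. The suprabasal median there was -0.53, with 4 of 19 genes lower and 1 higher. The share over all genes within that sub-cluster is not given here. Over all chosen cells Krt15 stood at 2792 and 2862 CPM (ratio interval 0.90 to 1.06), and Dsp, for desmoplakin, at 2339 and 2065 CPM. The 38 transcription factors of stratification had a median of -0.03: Trp63, the master regulator of stratified epithelium, stood at 184 and 226 CPM (0.59 to 1.10) and Klf4, a factor of suprabasal cells, at 553 and 602 CPM (0.77 to 1.10). Notch genes had a median of 0.44 with 5 genes at the minimum level, and EGFR ligands and receptors of 0.49 with 2, again with no gene past the rule. EDAR target genes had a median of 0.08 with 12 measured and 4 at that level, and Nfkbia, whose product holds NF-kB in the cytoplasm, stood at 167 and 159 CPM (0.74 to 1.48).

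Of 15 measured genes of metallothioneins, which bind zinc and copper, and zinc transport 8 had ratios below 0, with a median of -0.19. At the minimum level stood 8 of the 15, and 1 passed, as lower, against 3.08% lower over all genes at that level. This was Mt3, with 0 UMIs in K14cre;Edarfl/fl and 31 UMIs in 3 Edarfl/fl cells, 26 of them in 1 cell. It was at least 6.95-fold lower against the floor, and no longer passed without its highest cell. Mt1 stood at 395 CPM in K14cre;Edarfl/fl and 247 CPM in Edarfl/fl gated cells, a log2 ratio of 0.67 that did not pass, against 144 and 24.4 CPM and a ratio of 2.34 in the other epithelial cells. Mt2 stood at 1190 and 814 CPM in the gated cells, in 65 and 48 cells, against 36.7 and 35.7 CPM in the other epithelial cells.

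**Figure D5:**
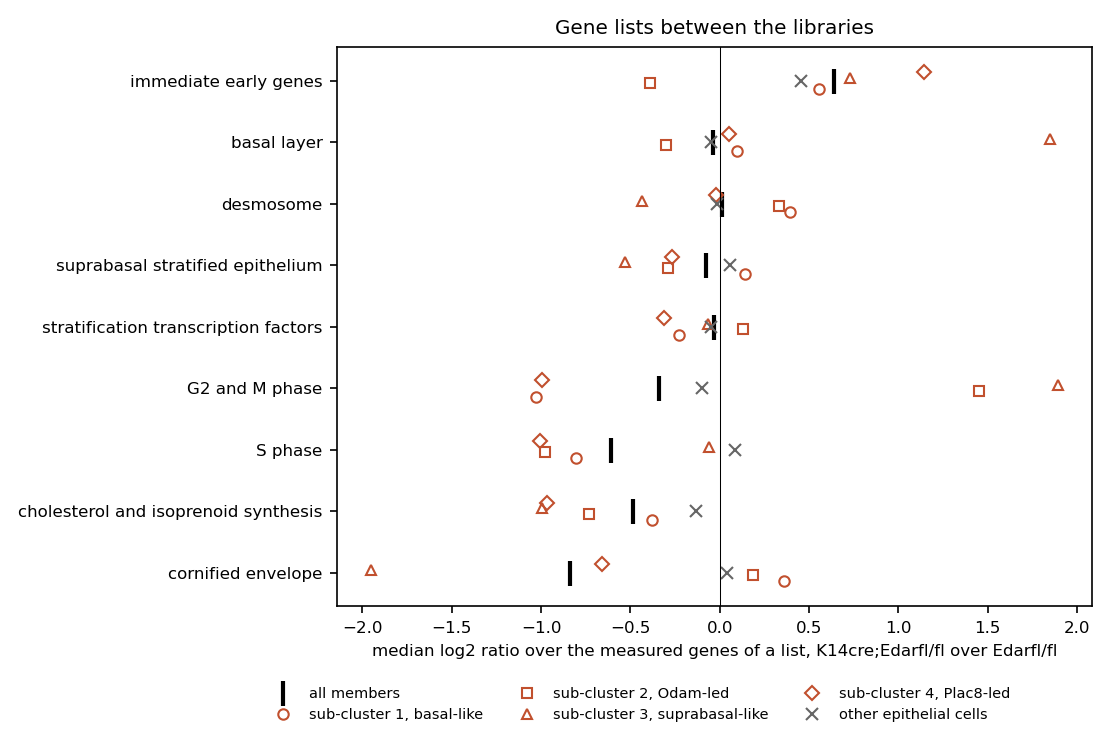
Median log2 ratio of gene lists, K14cre;Edarfl/fl over Edarfl/fl, over all chosen cells (bars), in each sub-cluster (open symbols) and in the other epithelial cells (crosses). The cholesterol list lies below 0 everywhere it is drawn (-0.49 over all cells), while the cornified envelope list has sub-clusters on both sides of 0.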

How the data were processed

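Single cells were captured with BD Rhapsody from molar germs, 1 library for K14cre;Edarfl/fl and 1 for Edarfl/fl. The deposited matrices hold UMI counts per gene and barcode, made by the authors with STARsolo on mm10, per the submitters' processing notes. The version and annotation they used were not given in the sources used here. Of 31253 features 31107 were found in the GENCODE M21 annotation used for positions, and 43 symbols occur more than once. The smallest barcode held 500 UMIs. After filtering, 15487 K14cre;Edarfl/fl and 13431 Edarfl/fl cells remained.

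The members and gene lists were chosen with earlier results of these data known. Counts were summed over the chosen cells of each library and divided by their total. With 1 library a group, no test was run: genes were called by size (at least 50 CPM in 1 library, 2-fold on CPM + 5, a conditional binomial interval of the count ratio without 1), outside the gate genes. Levels carry exact Poisson and shares exact Clopper-Pearson intervals, for counting error only. The rule was tested on simulated Poisson counts, which hold no spread between cells or animals. Genes were named, not all of them printed, by this rule: the gate genes, Edar, Edaradd, 3 metallothioneins, every called gene of a list, the 15 largest other changes in each direction and the 25 genes furthest above other epithelium. Members of lists that were not called, markers of sub-clusters and genes scarcer than in other epithelium were chosen after their values were seen. Scrublet marked 243 cells (1.57%) and 176 cells (1.31%), 1 and 1 of them among the members, which were kept and left out as an alternative. Sub-clusters came from 1000 variable genes, 15 components, 10 neighbours and Leiden resolution 0.5. Python 3.11.15, numpy 2.4.6, scipy 1.17.1, pandas 2.3.3, scanpy 1.11.5 and matplotlib 3.10.9 were used. There were 19 alternatives, 4 of them added after seeing the data.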

Additional observations from a re-analysis of the deposited data

How the results depend on the processing

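Over 102 higher and 112 lower genes, 19 alternatives were tried, of which leaving out each gene's highest cell, the Odam-led or the Idi2-led (suprabasal-like) sub-cluster, or cells without a Krt4 or Krt13 UMI were chosen after seeing the data. The numbers of higher and lower genes were 43 and 60 with 20 CPM added, 266 and 237 with no minimum level, 30 and 41 with a minimum of 100 CPM, and 164 and 171 in cells with Xist only. They were 216 and 154 in cells with at least 1000 genes and at most 10% mitochondrial UMIs, 238 and 98 in cells with Y-linked UMIs only, 234 and 139 with the gate without Krt6a, 157 and 114 without the Odam-led sub-cluster, and 208 and 137 in cells with a Krt4 or Krt13 UMI. Genes 4-fold above the other epithelial cells numbered 65 without the Idi2-led sub-cluster, against 106. Of 82 named genes past the rule, the median kept its call in 14 of 19 alternatives, 37 in at least 15 and 1 (Sfrp1) in all. Log2 ratios changed sign in 59 cases over 39 genes, 26 of them in the Y-linked cells. Of 57 such cases with UMIs listed, 41 had 3 UMIs or fewer in 1 library, 15 of them 0, where the value depends on the 5 CPM added and shows no reversal, and 3 passed the rule the other way (Serpinb3a and Sprr1a in the Y-linked cells, Gm17660 in thinned cells). In cells with Y-linked UMIs only (13 and 40) these were Serpinb3a 1.32, Vim -1.59, Cysrt1 1.50, B2m -0.88, Spry1 -0.18, Fdps 0.81, Lor 3.18, Sprr1a 3.34, Alpl 1.96, Fosb -0.22, Cnfn 1.66, Zfp36 -0.56, Defb1 0.28, Junb -0.60, Alox12b 1.50, Pecam1 -0.84, Fos -0.027, Sqle 0.034, Krt6b 0.65, Egr1 -0.44, Cd34 -1.37, Tbc1d4 -1.75, Igfbp7 -0.090, Dusp2 -0.54, Cstdc5 1.50 and Csn3 0.89. In cells with Xist only (43 and 14) they were Serpinb12 0.28, Serpinb3a 0.34, Cenpf 0.88, Cysrt1 1.09, Cnfn 2.72, Idi2 1.70, Krt6b 2.13 and Cstdc5 2.46. Without the Idi2-led sub-cluster they were Serpinb12 0.77, Serpinb3a 1.93, Cnfn 1.93, Krt6b 1.41, Fabp4 1.03 and Cstdc5 1.65, and without the Odam-led one Alpl 0.44, Odam 0.31, Hmox1 0.15 and Mindy4 1.91. In thinned cells (51 and 67) they were Alpl 0.34, Gm17660 1.75, Dusp6 -1.02, Csrnp1 -0.018, Cst6 -2.29 and BC037156 -1.99. The rest were Cst6 -1.49 and Eln -0.18 in cells with at least 1000 genes, Alpl 0.14 and Cst6 -0.45 with the gate without Krt6a, Cst6 -0.087 in cells with a Krt4 or Krt13 UMI, Pecam1 -0.44 and Dusp2 -0.31 without cells of endothelial, macrophage or lymphoid UMIs, Sprr1a 0.58 with equal weight for each cell, and BC037156 -0.81 without its highest cell. Fewer cells enter most of these alternatives, and beyond that the cause was not tested. No paired analysis was possible because each group is 1 library, and for the same reason no replicate could be left out. Depth limits genes under about 10 UMIs in a library, Edar among them, for which no difference was detectable.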
